A study of Mus musculus with 8 samples.

Results

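The genes described here carry out the last steps of thyroid hormone action inside a cell: the deiodinases Dio1, Dio2, and Dio3, the hormone receptors Thra and Thrb, the transporter Slc16a10, and the hormone-binding protein Crym. These 7 genes, taken by symbol from the 18533 gene symbols counted, were chosen because Dio2 was strongly higher in the Hint1-/- samples, so the Dio2 values below describe that choice and carry no test. The 8 RNA-Seq samples were mouse aortic smooth muscle cells (MASMCs), primary cells grown from mouse aorta, 4 from wild-type (WT) mice and 4 from Hint1-/- mice. The sources name the whole aorta in one place and the thoracic aorta in another, and do not describe the Hint1 allele. Hint1 encodes a small nucleotide-binding hydrolase. Both groups received the same growth factor, PDGF-BB at 20 ng/mL for 24 hours, and no unstimulated sample was analysed here. The donors were male mice 4 to 6 weeks old. The methods name different suppliers for Hint1-/- and C57BL/6J mice and give no strain for the Hint1-/- line. They also state that littermates were compared. Neither the labels nor the methods say whether the samples of a group came from separate mice or cultures, so p-values measure only the spread between these samples.

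Thyroid hormone reaches tissues mostly as the prohormone T4. The type 2 deiodinase, encoded by Dio2, removes an outer-ring iodine inside the cell and yields the active hormone T3, the type 3 enzyme inactivates both hormones by removing an inner-ring iodine, and the type 1 enzyme can do either. Transporters of the plasma membrane carry the hormones across, crystallin mu, encoded by Crym, binds T3 in the cytosol, and T3 acts through nuclear receptors that pair with retinoid X receptors on DNA. Dio2 is best known from brown fat, pituitary, and glia, and is a textbook target of cAMP signaling. Vascular smooth muscle is a recognized target of T3, which relaxes it.

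What unites the 3 deiodinases is selenocysteine, an amino acid set into the protein at a TGA codon that would otherwise end translation. The coding sequence around each such codon is shown because the lists tested below include the machinery that reads it. Each line gives 27 bases of the coding strand from mm10 with the TGA in capitals, codons being counted from 1 at the start codon.
Dio1, codon 126 of 257 (chr4:107297700-107297702, minus strand): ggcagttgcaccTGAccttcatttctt
Dio2, codon 130 of 266 (chr12:90729823-90729825, minus strand): ggttcagccaccTGAccacctttcact
Dio2, codon 263 of 266 (chr12:90729424-90729426, minus strand): ttcagcaagagaTGAattctagattag
Dio3, codon 170 of 304 (chr12:110279739-110279741, plus strand): ggcagctgtaccTGAccaccgttcatg
Dio2 alone has a second such codon, close to the end of its coding sequence.

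The 250 bases upstream of the RefSeq start of Dio2, itself upstream of the GENCODE start used for the coordinates below, are shown since Dio2 is the member that was called (GRCm38.p6, chr12:90739039-90739288, minus strand, from RefSeq). Capitals mark the motifs found.
Dio2 upstream: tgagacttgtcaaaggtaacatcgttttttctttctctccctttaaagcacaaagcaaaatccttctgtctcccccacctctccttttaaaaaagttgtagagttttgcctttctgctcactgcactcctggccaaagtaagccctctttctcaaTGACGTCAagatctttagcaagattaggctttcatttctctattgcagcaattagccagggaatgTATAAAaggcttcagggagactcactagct
The full cAMP response element TGACGTCA began 95 bases before the start, and a TATA box, TATAAA, began 30 bases before it. Searched on both strands in 32851 RefSeq promoters of 300 bases each (250 before and 50 after the start), TGACGTCA was present in 1.79% and TATAAA in 13.6%. Promoters were on hand for 5 of the 7 members, with 2 for Thrb. TATAAA also began 31 bases before the start of Dio3 and 167 bases before the second start of Thrb. That second promoter of Thrb further held CACGTG, the E-box of USF and MITF, which 7.15% of promoters hold. The AP-2 motif GCCNNNGGC, found in 16.6% of promoters, occurred 81 and 6 bases before the first start of Thrb and 38 bases after that of Slc16a10. The DR4 direct repeat, the textbook thyroid hormone response element, was in no member's promoter and in 5 of the 32851. Each match is a description of letters and not of binding.

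The libraries were alike in depth, with 20778077 to 20888041 estimated counts each, and in composition, the 20 most abundant genes taking 8.10% to 8.49%. Hint1 itself ranged over 2272 to 2364 estimated counts in WT and 713 to 778 in Hint1-/- libraries, 0.321-fold of the WT level and above 0 in each knockout library. A gene was called when edgeR's quasi-likelihood test gave a Benjamini-Hochberg adjusted p under 0.05 over all genes tested and the fitted fold change was over 1.5. Levels are given in CPM, counts scaled to the normalized library size. By this rule 383 of 13535 tested genes, or 2.83%, were called, 182 higher and 201 lower in Hint1-/- MASMCs, and the median log2 fold change of all genes was 0.00. Of the 7 members, 5 passed the filter on low counts (Dio2, Thra, Thrb, Slc16a10, and Crym) and 1, Dio2, was called. By the adjusted p alone, 3 of the 5 passed (Dio2, Thrb, and Slc16a10), against 21.5% of all genes tested. In 2 of them, Dio2 and Slc16a10, no sample of one genotype fell within the range of the other, against 23.0% of all genes. Dio2 was picked from this contrast, so nothing is read from its place in these counts. Among the other 4 tested members none was called, 2 passed the adjusted p, and 1 did not overlap.

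Dio2, the T4-activating enzyme, was measured at 928, 935, 983, and 1009 estimated counts in WT replicates 1 to 4 and at 2247, 2313, 2270, and 2673 in Hint1-/- replicates 1 to 4. The WT samples lay close together, each Hint1-/- sample was more than double any of them, and Hint1-/- replicate 4 was the highest of the 8. Means were 46.1 ± 1.89 CPM in WT and 115 ± 9.60 CPM in Hint1-/- MASMCs (SD, n = 4 each), a 2.48-fold difference. The log2 fold change was 1.31 (SE 0.0515, given as a description of the spread). By fold, Dio2 stood 22nd among the 182 genes called higher and 8th among the 116 of these with a mean of at least 50 counts. Dio2 lies on chromosome 12 of mm10 from 90724552 to 90738438, on the minus strand, with 1 annotated transcript of 5815 bases. That transcript shares 100 exon bases with the noncoding RNA gene Gm26512 on the opposite strand, and since no source states strand-specific counting, reads from those bases cannot be assigned to one gene. Gm26512 itself was not analysed here.

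Dio3, the inactivating enzyme, was barely detected and was too low to test. It is a gene with a single exon on chromosome 12 (110279068 to 110281097, plus strand), and the antisense gene beside it, Dio3os, was not analysed here. WT replicates 1 to 4 had 3, 7, 1, and 3 counts, and Hint1-/- replicates 1 to 4 had 1, 14, 0, and 2. The ranges overlapped, and 1 library, Hint1-/- replicate 2, held most of the knockout counts. Pooled, 17 counts stood against 14, a ratio of 1.21 with an exact 95% interval of 0.563 to 2.66 that covers counting error only. Without that library the other 3 Hint1-/- samples held 3 counts together, and the log2 ratio of mean counts went from 0.28 to −1.81, outside that interval. The interval leaves out the spread between samples, so it sets no bound on a difference between the genotypes.

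Dio1 (chromosome 4, 107291465 to 107307169, minus strand), an enzyme best known from liver and kidney, had no counts in any WT library. Of the Hint1-/- libraries, only replicate 1 had any, with 1 count. No comparison could be made. Of the 3 deiodinases, therefore, Dio2 was the one with more than 14 counts in any library, in both genotypes.

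**Figure D1:**
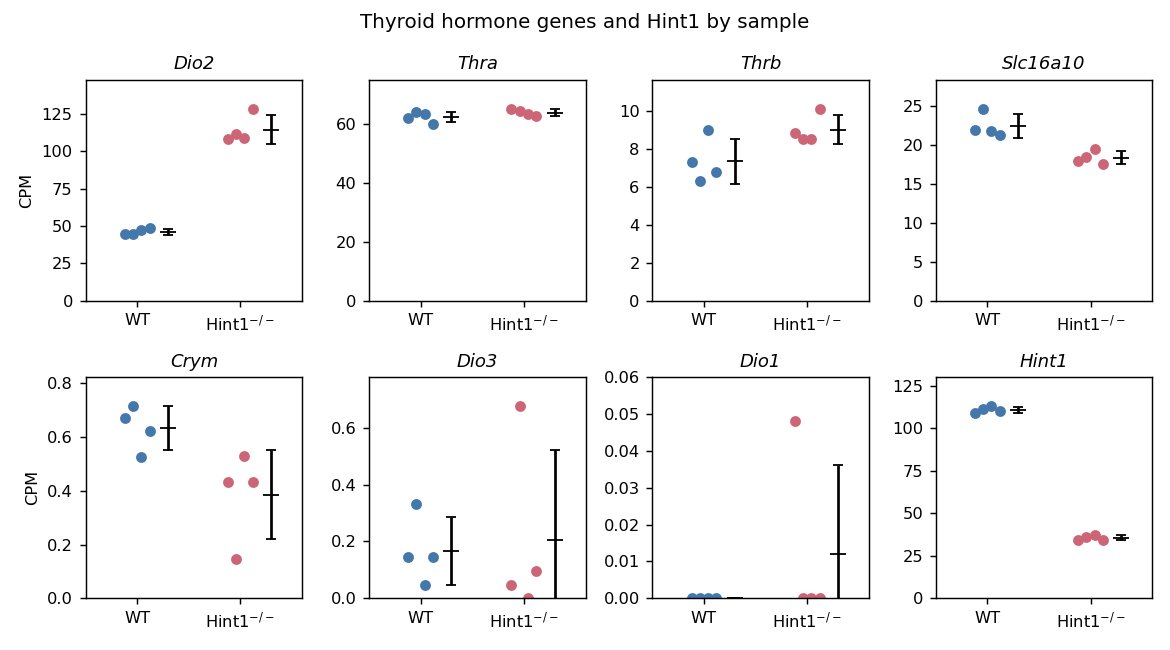
Level in CPM of the 7 members and of Hint1 in each sample, in panels with separate linear axes that start at 0. Points are samples, and the black bar with whiskers is the mean with the SD (n = 4 per genotype). The genotypes are apart for Dio2, Slc16a10, and Hint1, while they overlap for Thra, Thrb, Crym, Dio3, and Dio1.

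Slc16a10 (chromosome 10, 40033532 to 40142258, minus strand) encodes MCT10, a transporter of aromatic amino acids and iodothyronines. Its counts were 456, 517, 455, and 442 in WT replicates 1 to 4 and 371, 381, 404, and 365 in Hint1-/- replicates 1 to 4. The genotypes did not overlap, with the WT samples above. Means were 22.4 ± 1.55 CPM in WT and 18.3 ± 0.808 CPM in Hint1-/- MASMCs (SD, n = 4 each). The log2 fold change of −0.29 (SE 0.0603; edgeR adjusted p = 0.00187) corresponded to 0.820-fold, within the 1.5-fold limit.

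Of 9 other hormone transporter genes reported here, 5 were tested and none was called by edgeR, though 4 passed the adjusted p, each of them lower in Hint1-/- MASMCs and within the fold limit. These were Slco4a1, an organic anion transporter (log2 fold change −0.30), Slc7a5 (−0.23) and Slc7a8 (−0.33), the light chains LAT1 and LAT2 of amino acid exchangers, and Slc3a2 (−0.19), the heavy chain CD98 with which both pair. Slc7a5 was at 139 ± 7.78 CPM in WT and 118 ± 5.73 CPM in Hint1-/- MASMCs, and Slc3a2 at 278 ± 8.44 and 244 ± 8.55 CPM (SD, n = 4 each). Slco3a1 was at −0.03 (edgeR adjusted p = 0.688). The median over the 5 was −0.23, beside 0.00 over all genes, and 21.5% of all genes passed the adjusted p. Macrophage markers, with 6 of 7 tested passing as lower, moved in the same direction, and their part in these values was not tested. Not every known transporter of the hormone is covered.

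Crym (chromosome 7, 120186380 to 120202111, minus strand), encoding the cytosolic T3-binding protein crystallin mu, was near the limit of the filter. It had 14, 15, 11, and 13 counts in WT replicates 1 to 4 and 9, 3, 11, and 9 in Hint1-/- replicates 1 to 4, so that the genotypes met at 11. Means were 0.634 ± 0.0811 CPM in WT and 0.385 ± 0.166 CPM in Hint1-/- MASMCs (SD, n = 4 each). The log2 fold change of −0.71 (SE 0.33) did not pass the test (edgeR adjusted p = 0.142). Its 95% interval, which is not adjusted for the number of genes tested, ran from −1.35 to −0.06. Without Hint1-/- replicate 2, the lowest sample, the log2 fold change was −0.44.

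Thra (chromosome 11, 98740638 to 98769006, plus strand) encodes the receptor TRα1 and, by alternative splicing, a variant that does not bind T3, and these gene counts do not separate them. It had 1292, 1347, 1329, and 1253 counts in WT replicates 1 to 4 and 1355, 1335, 1317, and 1300 in Hint1-/- replicates 1 to 4. All 8 samples lay within a narrow band, with the genotypes interleaved. Means were 62.4 ± 1.85 CPM in WT and 63.9 ± 1.20 CPM in Hint1-/- MASMCs (SD, n = 4 each). The log2 fold change was 0.03 (SE 0.0355; edgeR adjusted p = 0.547), with a 95% interval of −0.04 to 0.10. The last exons of Thra overlap those of Nr1d1, a clock repressor on the opposite strand, over 263 bases. Nr1d1 was at 91.3 ± 7.88 CPM in WT and 97.8 ± 3.39 CPM in Hint1-/- MASMCs (SD, n = 4 each), a log2 fold change of 0.10 (edgeR adjusted p = 0.169).

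Thrb (chromosome 14, 17660261 to 18038090, plus strand) encodes the TRβ receptors. Its counts were 152, 132, 188, and 141 in WT replicates 1 to 4 and 183, 176, 177, and 210 in Hint1-/- replicates 1 to 4. WT replicate 3 lay above 3 of the Hint1-/- samples, so the genotypes overlapped. Means were 7.33 ± 1.18 CPM in WT and 8.99 ± 0.765 CPM in Hint1-/- MASMCs (SD, n = 4 each), 1.23-fold. The log2 fold change of 0.29 (SE 0.102) was just past the adjusted p threshold (edgeR adjusted p = 0.0471) and within the fold limit. By DESeq2 the adjusted p was 0.0996, and leaving out any sample other than WT replicate 3 also took it over 0.05, to between 0.0554 and 0.165.

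**Figure D2:**
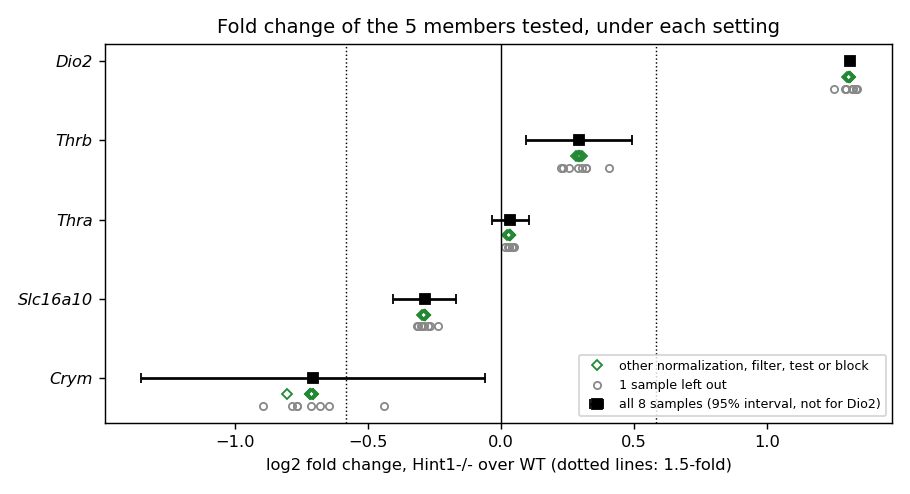
Log2 fold change of Hint1-/- over WT for the 5 members tested. Black squares with bars are the fit of all 8 samples with its 95% interval (none for Dio2, whose difference chose the set), green diamonds the other normalizations, filters, tests, and the replicate block, and gray circles the fits with 1 sample left out. Dio2 lies beyond the dotted 1.5-fold line at 1.25 to 1.34 under every setting shown, Thra stays near 0, and the Crym values spread from −0.90 to −0.44.

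Levels of different genes were compared per kilobase of merged exons. In WT MASMCs the order was Thra (13.5 ± 0.401 CPM per kb), Dio2 (7.93 ± 0.326), Slc16a10 (3.04 ± 0.21), Thrb (0.99 ± 0.159), Crym (0.187 ± 0.0239), and Dio3 (0.0824 ± 0.059; SD, n = 4 each). The ranges of neighbors in this order did not overlap in WT except those of Crym and Dio3. In Hint1-/- MASMCs Dio2, at 19.7 ± 1.65 CPM per kb, stood above Thra, at 13.9 ± 0.261 (SD, n = 4 each), with the lowest Dio2 sample at 18.6 and the highest Thra sample at 14.2. Slc16a10 (2.49 ± 0.11) and Thrb (1.21 ± 0.103) followed, apart from each other and from Thra. Crym (0.114 ± 0.0491) and Dio3 (0.101 ± 0.156) again overlapped. The change of place between Dio2 and Thra depends on the length used. Divided by the longest annotated transcript, Thra was at 25.5 ± 0.755 CPM per kb in WT and 26.1 ± 0.491 in Hint1-/- MASMCs (SD, n = 4 each), above Dio2 in both genotypes. Between the receptor genes, Thra exceeded Thrb in every sample on either length.

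**Figure D3:**
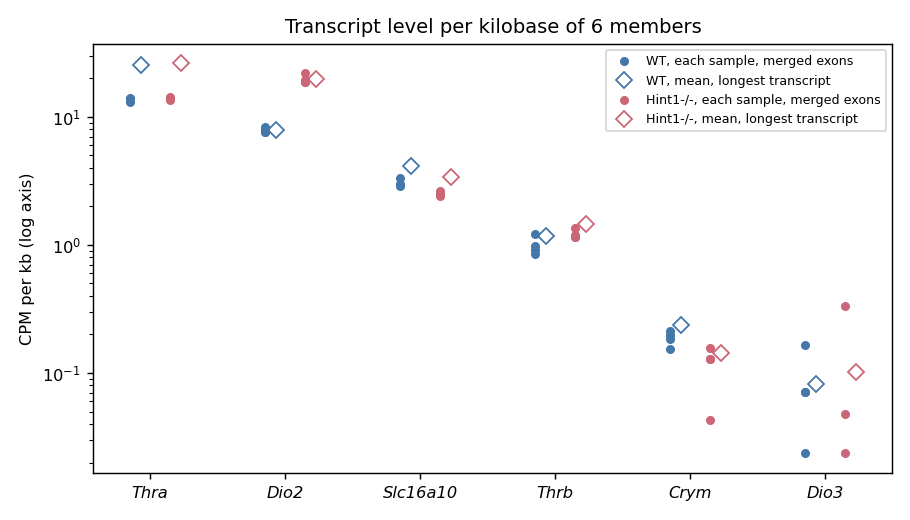
Level per kilobase (CPM per kb, log axis) of 6 members in WT and Hint1-/- MASMCs. Dots are samples over the length of the merged exons (a sample with no Dio3 counts is not drawn), and open diamonds are means over the length of the longest transcript. Dio2 moves above the Thra dots in Hint1-/- MASMCs and stays below the Thra diamonds.

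The wider biology of the hormone was covered by 9 lists with 115 genes reported here. Of these, 88 were tested, 2 were called higher (Myh6 and Myh7), 1 was called lower (Tshr), and 19 passed the adjusted p alone or with the fold limit. Their median log2 fold change was 0.01. These 3 calls among 88 genes stood beside 2.83% of all genes, and 19 of 88 beside 21.5%.

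No gene was called among the 17 tested RXR partners and coregulators of the receptors. Rxra, the main partner of the receptors on DNA, was at 60.4 ± 2.65 CPM in WT and 62.1 ± 1.70 CPM in Hint1-/- MASMCs (SD, n = 4 each; log2 fold change 0.04), and Rxrb at 41.0 ± 1.94 and 38.3 ± 2.01 CPM (SD, n = 4 each; −0.10). Neither passed the test (edgeR adjusted p = 0.505 and 0.156). Tbl1xr1, a subunit of the corepressor complex, alone passed the adjusted p, at a log2 fold change of 0.13. The fitted fold changes of the tested receptor and cofactor genes lay within the 1.5-fold limit. Among all genes 2.83% were called and 21.5% passed the adjusted p, so no call among 17 is not read as a result. Rxrg, also on the list, was too low to test.

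The type 2 deiodinase is a short-lived protein, cleared by ubiquitination through the adapter WSB1 and rescued by the deubiquitinases USP33 and USP20. All 11 genes of this turnover list were tested and none was called by edgeR, nor did any pass the adjusted p, with a median log2 fold change of −0.02. None of the 9 genes for selenocysteine incorporation was called or passed the adjusted p (median 0.00). Among 18 tested genes for other selenoproteins, which use the same TGA decoding as the deiodinase codons shown above, none was called. Gpx3, secreted glutathione peroxidase (log2 fold change 0.47), Selenok (0.14), and Selenos (0.13), both of the endoplasmic reticulum, passed the adjusted p as higher. Txnrd1, cytosolic thioredoxin reductase (−0.27), and Selenof (−0.13) passed it as lower. The median of the list was 0.02. Over all genes 2.83% were called and 21.5% passed the adjusted p, so the lack of a call in lists this short is not read as a result.

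Genes that T3 induces in various tissues were tested for 13 of 22 on the list. Klf9, a transcription factor gene with a receptor-bound enhancer, was at 31.2 ± 0.787 CPM in WT and 36.3 ± 1.64 CPM in Hint1-/- MASMCs (SD, n = 4 each), with no overlap of the samples. Its log2 fold change of 0.22 (SE 0.045; edgeR adjusted p = 0.00152) was within the fold limit. Hr, which encodes the corepressor hairless, was at 0.11 (SE 0.092; edgeR adjusted p = 0.44). Me1, malic enzyme, at 0.12, and Bcl3 at 0.11 passed the adjusted p as higher, and Mgp, matrix Gla protein, a calcification inhibitor of the vessel wall, passed it as lower at −0.15. Over the 13 genes the median was 0.07, beside 0.00 over all genes. As higher, 4 passed the adjusted p, Myh6 (below) among them, and 1 passed as lower, beside 21.5% of all genes in either direction.

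The 1 T3-induced gene called was Myh6, the cardiac α-myosin heavy chain. It had 3, 0, 0, and 1 counts in WT replicates 1 to 4 and 53.6, 58, 58.5, and 32.3 in Hint1-/- replicates 1 to 4. Myh7, the β-myosin heavy chain, which T3 represses in heart, was called in the same direction, with 0, 2, 2, and 0 counts in WT and 23.1, 30.9, 46.8, and 28.2 in Hint1-/- replicates 1 to 4. The fitted log2 fold changes were 5.50 (SE 0.449) and 4.86 (SE 0.489). They rest on few WT counts: without WT replicate 1, which held 3 of the 4 WT counts of Myh6, its value was 6.80. The 2 genes are near-identical neighbors whose reads can be divided between them, so each level is uncertain. Of the 9 other genes of the cardiac marker list 3 were tested, and 2 of these, Tnnt2 and Myl7, were called higher. Without Myh6 the list summed to 1.91 to 2.62 CPM in WT libraries and 4.38 to 6.39 CPM in Hint1-/- libraries. Tnni3 was at a log2 fold change of 0.74 (edgeR adjusted p = 0.082). Actc1, too low to test, had 0, 0, 0, and 2 counts in WT and 15.9, 12.1, 20, and 4 in Hint1-/- replicates 1 to 4. Myl2, Nppa, and Ryr2 had at most 8 counts in any library with overlapping genotypes, and Pln and Mb at most 3. The part of cardiac cells or cardiac transcription in these values was not tested. The other T3-repressed gene tested, Slc8a1, which encodes the sodium-calcium exchanger, was at 0.06 (SE 0.076).

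Because the Dio2 upstream sequence holds a cAMP response element, genes known to respond to cAMP were also counted. None of the 10 tested out of 13 was called, where 2.83% of all genes were called and 21.5% passed the adjusted p. Pde4b, a cAMP phosphodiesterase, passed the adjusted p as higher (log2 fold change 0.52) and the nuclear receptor gene Nr4a1 as lower (−0.36). Crem, whose internal promoter is a classical cAMP target, was at 0.03 (SE 0.0564), and the list's median was 0.03. The part of cAMP signaling in the Dio2 difference was not tested.

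The genes of hormone synthesis and serum transport, proper to thyroid and liver, were listed as a control. Of 10, 3 were tested and 1, Tshr, was called, beside 2.83% of all genes. So few tested genes give no rate to compare with the other lists. Tshr, the thyrotropin receptor, which signals through cAMP, had 25, 26, 32, and 24 counts in WT replicates 1 to 4 and 12, 15, 17, and 15 in Hint1-/- replicates 1 to 4, with no overlap. It fell from 1.28 ± 0.171 to 0.711 ± 0.0985 CPM (SD, n = 4 each), a log2 fold change of −0.84 (SE 0.218; edgeR adjusted p = 0.00894). By DESeq2 the adjusted p was 0.0521.

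**Figure D4:**
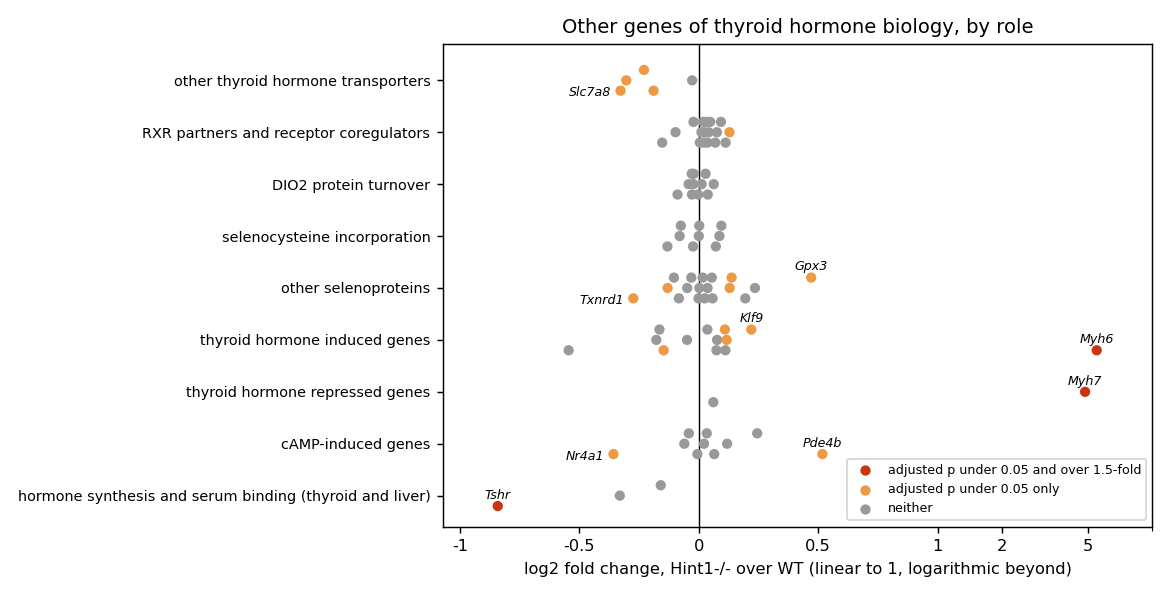
Log2 fold change of Hint1-/- over WT for the tested genes of the 9 lists, 1 row per list, on an axis that is linear to 1 and logarithmic beyond. Red points passed both thresholds, orange points the adjusted p alone. Most points lie within 0.5 of 0 on either side, with Myh6 and Myh7 called higher and Tshr called lower.

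Tshr is also one of the genes near Dio2. Of 26 annotated genes that start within 1 Mb of the Dio2 start, 3 were in the files and tested. Tshr starts 646 kb upstream of Dio2. Gtf2a1, a general transcription factor gene 852 kb upstream, was at a log2 fold change of −0.26 (SE 0.076; edgeR adjusted p = 0.0194), within the fold limit, and Cep128, a centriole gene also 646 kb upstream, was at 0.12 (SE 0.0753, adjusted p = 0.29).

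The 5 genes whose log2 CPM followed that of Dio2 most closely over the 8 samples, out of 11845 with a mean of at least 50 counts, are given as a description. They were Itih2, which encodes a hyaluronan-linked matrix protein (Pearson r = 0.999), Nnt, the mitochondrial transhydrogenase (0.997), Kdm4b, a histone demethylase (0.995), Ndufa4l2, a mitochondrial protein gene induced by hypoxia (0.995), and Gys1, muscle glycogen synthase (0.995). All were higher in Hint1-/- MASMCs, from 1.37-fold for Kdm4b, which was not called, to 2.81-fold for Ndufa4l2. The points share the 2 genotypes, and any gene with a clear genotype difference in this direction gets a high r: 580 genes were over 0.9. Within the genotypes, over deviations from the group means, r was 0.898 for Itih2, 0.868 for Kdm4b, 0.812 for Nnt, 0.64 for Ndufa4l2, and 0.575 for Gys1. The 5 genes were picked by their r over these same 8 samples, which favors a high r within the genotypes as well. These values are therefore part of the same description and no separate support.

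Markers of the cell types that the cultures could hold moved with the genotype beside these genes. In bulk RNA, fewer cells of a type and less RNA per cell cannot be told apart. Smooth muscle markers were detected, with Acta2 at 826 ± 44.6 CPM in WT and 578 ± 15.6 CPM in Hint1-/- MASMCs (SD, n = 4 each), but Myocd, the master regulator of the type, was under 1 CPM in both. Of 9 tested smooth muscle markers 3 were called lower (Myh11, Cnn1, and Des), Acta2 and Lmod1 passed the adjusted p as lower and Smtn as higher (log2 fold change 0.25), Tagln, Cald1, and Mylk did not pass, and the list summed to 2531 to 2681 CPM in WT and 2344 to 2437 CPM in Hint1-/- samples. Macrophage markers were abundant and none of the 7 tested was called, while 6 passed the adjusted p as lower. Their sum was 2263 to 2621 CPM in WT and 1849 to 1968 CPM in Hint1-/- samples. Of the 8 fibroblast markers tested, Dcn and Lum were called higher and Dpt lower. Pdgfra passed the adjusted p as higher and Col14a1 as lower, while Pi16, Clec3b, and Scara5 did not pass. The list summed to 1731 to 1802 CPM in WT and 2620 to 2755 CPM in Hint1-/- samples. Dcn alone was at 1112 ± 42.4 and 1975 ± 61.4 CPM (SD, n = 4 each), and the list's median log2 fold change was −0.06. Of the 4 glia and Schwann cell markers reported here and tested, 2 were called lower (Sox10 and Ngfr), while S100b (1.02-fold) and Mbp (0.892-fold) did not pass, and the list summed to 51.4 to 55.1 CPM in WT and 21.1 to 23.3 CPM in Hint1-/- samples. Of the adipocyte markers, Ucp1, Cidea, Cidec, and Plin1 were at 2 counts or fewer in every library, Adipoq had 4, 1, 3, and 0 counts in WT and 0, 0, 1, and 0 in Hint1-/- replicates 1 to 4, and Cfd had 8, 4, 5, and 4 against 0, 1, 0, and 0. Only Fabp4, which macrophages also express, was tested, without a call, and the list summed to 48.0 to 55.1 CPM in WT and 50.7 to 58.1 CPM in Hint1-/- samples. Endothelial markers summed to 6.53 to 9.18 CPM in WT and 6.68 to 8.75 CPM in Hint1-/- samples, and skeletal muscle markers to 1.06 to 1.91 and 1.16 to 1.88 CPM, with no gene called in either list. Apart from these measurements, the part of these cell types in the Dio2 and Slc16a10 differences was not tested.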

How the data were processed

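RNA-Seq counts were analysed for 4 WT and 4 Hint1-/- MASMC samples, grouped by the labels' genotype. Poly(A) RNA was sequenced as short reads. Methods name HISAT2 and the submitters' processing notes list Bowtie2, RSEM 1.3.1, DESeq2 1.4.5, and mm10; the gene annotation and strand setting are not given in the sources used here. The authors deposited estimated counts per gene symbol, unnormalized, with 67.3% to 67.8% of values whole. Reads that fit several genes are divided between them in such counts, which makes near-identical genes uncertain.

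Estimated counts were rounded, filtered with filterByExpr, scaled by TMM (factors 0.993 to 1.01), and tested two-sided with edgeR 4.0.16 (R 4.3.3; glmQLFit, glmQLFTest, genotype only, Benjamini-Hochberg over all genes). A standard error is the log2 fold change divided by the root of F. The 95% intervals use it with a normal multiplier and are not adjusted for the number of genes tested. A prior count of 2 went into log2 CPM. Scripts were checked on simulated data. Alternatives used DESeq2 1.42.0, limma 3.58.1, other scalings and filters, a replicate block, and 1 sample left out. Lengths and positions came from GENCODE M21, and promoters from RefSeq. The named genes were the 7 members, called genes of the lists, partners of members, overlapping and neighboring genes, and the 5 genes most like Dio2; list genes past the adjusted p, marker genes, Crem, Slc8a1, and Slco3a1 were added after their values were seen. The members and lists were chosen with earlier results of these data known. The results for 3 genes of these lists are not reported here, and list counts leave them out.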

Additional observations from a re-analysis of the deposited data

Results flagged for a closer look

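Myh6 in the Hint1-/- samples had 1 sample apart from the others: replicate 4, at 32.3 estimated counts, against 53.6, 58, and 58.5 in replicates 1, 2, and 3. On the log2 CPM scale its gap to the nearest sample was 0.876 of the range of the 4, beyond the limit of Dixon's test at 95%. Of 36 sets of 4 samples examined in this way, 1 was set apart, where chance gives about 1 in 20, or 1.8 here. Among the 7 thyroid hormone genes, 6 were examined (not Dio1), and no set of theirs was set apart. The Hint1-/- sets of Crym (0.826 of the range) and Dio2 (0.820) came closest and were just under the limit.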

How the results depend on the processing

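Dio2 had log2 fold changes of 1.25 to 1.34 over the 15 alternatives run for it, given as a description since its difference chose the set. Slc16a10 stayed past the adjusted p threshold in its 15 (adjusted p 0.0011 to 0.00918, log2 fold change −0.32 to −0.24), and Thra (0.02 to 0.05) and Crym (−0.90 to −0.44, 14 alternatives) stayed over it. Thrb, at 0.29 (adjusted p = 0.0471), went over 0.05 with upper-quartile factors (0.28, adjusted p = 0.056) and DESeq2 (0.29, adjusted p = 0.0996), and ranged from 0.23 to 0.41 with 1 sample left out; the cause was not tested. For Dio3 the log2 ratio of counts was 0.28, 0.28 without the filter on low counts, and −1.81 to 0.87 with 1 sample left out, the lowest without Hint1-/- replicate 2. The other planned settings were not run for Dio3, and none was run for Dio1, whose counts are too few to fit. Without the fold limit 2907 genes were called in place of 383, and 19 list genes in place of 3. With at least 10 counts in every sample 1 list gene was called, since Myh6 and Myh7 were then not tested. Leaving out 1 sample gave 350 to 390 called genes and 3 list genes each time. Levels per kb over the longest transcript moved beyond 1 SD for Thra, Slc16a10, and Thrb in both genotypes and for Crym in WT. Deviations of samples with the same replicate number had correlations of −0.045 to 0.0814. WT replicates 2 and 4 were closest to the Hint1-/- sample of their own number, and WT replicates 1 and 3 were not. With 4 samples per genotype this cannot decide whether the numbers pair the samples, and the labels do not say. With the replicate block the log2 fold change of Dio2 was 1.31, of Slc16a10 −0.29, of Thra 0.03, and of Crym −0.72, and no member's call changed. Low counts limit Dio1, Dio3, and Crym.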
